A study of Mus musculus with 14 samples.

Results

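The net change in gene expression between the stem cell compartment of mouse bone marrow and a committed myeloid progenitor was taken from the 4 arrays titled WT GMP (2) and WT LSK (2), out of 14 Affymetrix expression arrays in the series. All 45101 probe sets were used, and 18194 genes had a probe set that named them alone. LSK cells are lineage-negative marrow cells that carry c-Kit and Sca1. GMP, the granulocyte-macrophage progenitors, are lineage-negative and c-Kit-positive, lack Sca1, carry CD34 and have high Fc gamma receptor. Both wild-type (WT) populations came from Tet2+/+ Mx+ mice on a B6/129 background, littermates of Tet2-/- Mx+ mice. These controls carry Mx too, and deletion was induced by pIC injection, so the WT arrays are not from untreated marrow. LSK and CMP cells were sorted 4 weeks after deletion. The labels give no time for GMP and no age. The WT CMP arrays (2), from common myeloid progenitors with low Fc gamma receptor, were set between the endpoints. The LSK and GMP arrays of the Tet2-/- littermates (KO, 2 and 2) gave the same span in mice without Tet2. The sex-linked transcripts differed between the genotypes: the 6 WT arrays carried Y-linked transcripts and the 6 sorted KO arrays carried Xist, so sex and genotype cannot be told apart wherever the WT and KO spans are compared. The labels leave unsaid whether the 2 arrays per population represent different mice. A p-value here therefore measures only the spread between arrays, which may be technical.

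LSK cells include the stem cells that renew themselves and give rise to all blood lineages, together with multipotent progenitors, some of which are already biased towards lymphocytes. On the way to GMP, cells pass through the CMP stage, lose the capacity for self-renewal and for lymphoid fates, and begin to make the enzymes of the primary (azurophilic) granules of neutrophils. C/EBP factors and PU.1 are the transcription factors best known for driving that programme. Because whole sorted populations were measured, a lower level cannot be told apart from fewer cells of a type or less RNA per cell.

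The promoters below belong to the 3 genes named by rule from the primary granule list whose windows hold a PU.1 or C/EBP sequence. Elane and Mpo encode neutrophil elastase and myeloperoxidase, the main proteins of primary granules, and Ms4a3 is a membrane protein of granulocyte-monocyte progenitors. The windows of Gstm1, Nkg7 and Igsf6, also named from this list, held neither sequence and are not shown. Each window runs from 250 bases before to 50 bases after the RefSeq transcription start in build GRCm38.p6, written 5′ to 3′ on the gene's strand, at chr10:79886062-79886361 (plus strand) for Elane, chr11:87793534-87793833 (plus strand) for Mpo and chr19:11640802-11641101 (minus strand) for Ms4a3. Capitals mark a match to GAGGAAGT, a sequence bound by PU.1 (Elane and Mpo), or to TTGCNNAA, bound by C/EBP factors (Ms4a3).
Elane: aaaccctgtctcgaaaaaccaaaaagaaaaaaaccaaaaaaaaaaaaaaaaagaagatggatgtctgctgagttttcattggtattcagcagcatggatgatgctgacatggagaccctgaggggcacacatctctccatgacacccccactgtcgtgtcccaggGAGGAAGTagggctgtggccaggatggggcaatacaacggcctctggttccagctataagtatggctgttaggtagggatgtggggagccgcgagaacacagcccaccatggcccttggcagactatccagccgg
Mpo: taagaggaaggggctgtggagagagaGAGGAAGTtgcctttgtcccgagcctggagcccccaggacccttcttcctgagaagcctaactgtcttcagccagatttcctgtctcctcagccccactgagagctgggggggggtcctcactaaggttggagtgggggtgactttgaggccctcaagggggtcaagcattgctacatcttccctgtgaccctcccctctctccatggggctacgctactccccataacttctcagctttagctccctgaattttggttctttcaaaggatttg
Ms4a3: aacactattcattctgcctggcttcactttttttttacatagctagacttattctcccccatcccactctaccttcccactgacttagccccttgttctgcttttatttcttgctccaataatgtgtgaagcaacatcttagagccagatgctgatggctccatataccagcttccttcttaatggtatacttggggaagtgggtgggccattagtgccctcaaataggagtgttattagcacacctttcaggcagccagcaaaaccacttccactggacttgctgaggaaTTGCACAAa
Of 22 genes measured on the primary granule list, which is wider than granule proteins, 19 had a promoter window. GAGGAAGT, searched on both strands, was found in 4 of these 19 (21.1%) against 3.47% of the 14453 tested genes with a window. TTGCNNAA was found in 6 of 19 (31.6%) against 10.8%. TGTGGT, the RUNX sequence, was found in 7 of 19 (36.8%) against 16.1%, and AGATAA, the GATA sequence, in 0 of 19 against 9.53%. In the 19 lymphoid priming genes with a window, GAGGAAGT and TTGCNNAA were each found in 1 (5.26%), TGTGGT in 6 (31.6%) and AGATAA in 2 (10.5%). Over all genes called higher and all called lower the shares were close, at 6.53% and 5.95% for GAGGAAGT and 12.2% and 12.8% for TTGCNNAA. A gene counted if any of its windows held the letters. A match describes the sequence and says nothing of binding in these cells.

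In the WT span, 586 genes were higher in GMP (3.22% of 18194) and 704 were lower (3.87%) at a Benjamini-Hochberg adjusted p below 0.05 in limma. The list counts below are to be read against these shares. Counted over all probe sets, 854 were higher (1.89% of 45101) and 1085 lower (2.41%). The called changes had a median size of 1.59 on the log2 scale, and the median difference over all genes was 0.07. Of the called genes, 334 fell at least 4-fold and 155 rose at least 4-fold. Of the falls, 116 ended at or below background on both GMP arrays, and 63 of the rises started there on both LSK arrays. Background here is the floor of each array, its brightest bacterial control probe set, at an intensity between 20.8 and 27.8. The fit shares its estimate of the spread over all 7 groups. With the 4 arrays alone it called 57 genes higher and 132 lower, and 174 of these 189 were among the genes above. Without LSK replicate 1 it called 299 higher, without GMP replicate 1, 334, and without GMP replicate 2, 249 higher and 397 lower. Of the 126 genes named by rule that passed, 89 still passed whichever 1 of the 14 arrays was left out, and 41 passed with the 4 arrays alone. The rises among these 41 were Ccno, Cdh1, Clec7a, Elane, Enah, Fcgr2b, Fcgr3, Gstm1, Hk3, Hp, Ifngr1, Lin28a, Ly86, Mcpt8, Mfap3l, Ms4a3, Pglyrp1, Rab7b and Trem3. The falls were Cd79a, Ebf1, Flt3, Fscn1, Gbp2, Gimap8, Hlf, Hoxa10, Ighm, Igkv14-111, Igkv15-103, Iglv1, Il1r1, Il7r, Lax1, Myl10, Mzb1, Pdzk1ip1, Pou2af1, Procr, Sgce and Socs2.

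The sort markers were described first, since the gates chose on their proteins. Fcgr3, an Fc gamma receptor and the protein that sets GMP apart, stood at RMA intensities of 386 and 571 in LSK and 5002 and 4297 in GMP, 9.87-fold higher. Fcgr2b, the inhibitory Fc gamma receptor, stood at 359 and 310 in LSK and 1777 and 1904 in GMP. Both receptors were far apart between the groups on every array. Kit, present on both populations by the gate, stood at 2600 and 1847 in LSK and 1471 and 1279 in GMP, and Cd34 at 5367 and 4920 against 3610 and 4301. Neither passed the test (adjusted p = 0.0683 and 0.167, limma). Sca1 (Ly6a) was named by no probe set in the annotation used here, so the Sca1 part of the gate was not checked. Summed over the defining markers, the 8 LSK markers measured gave 19580 and 15850 in LSK and 6081 and 6311 in GMP, and the 10 GMP markers gave 21250 and 22620 against 53140 and 52460.

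**Figure D1:**
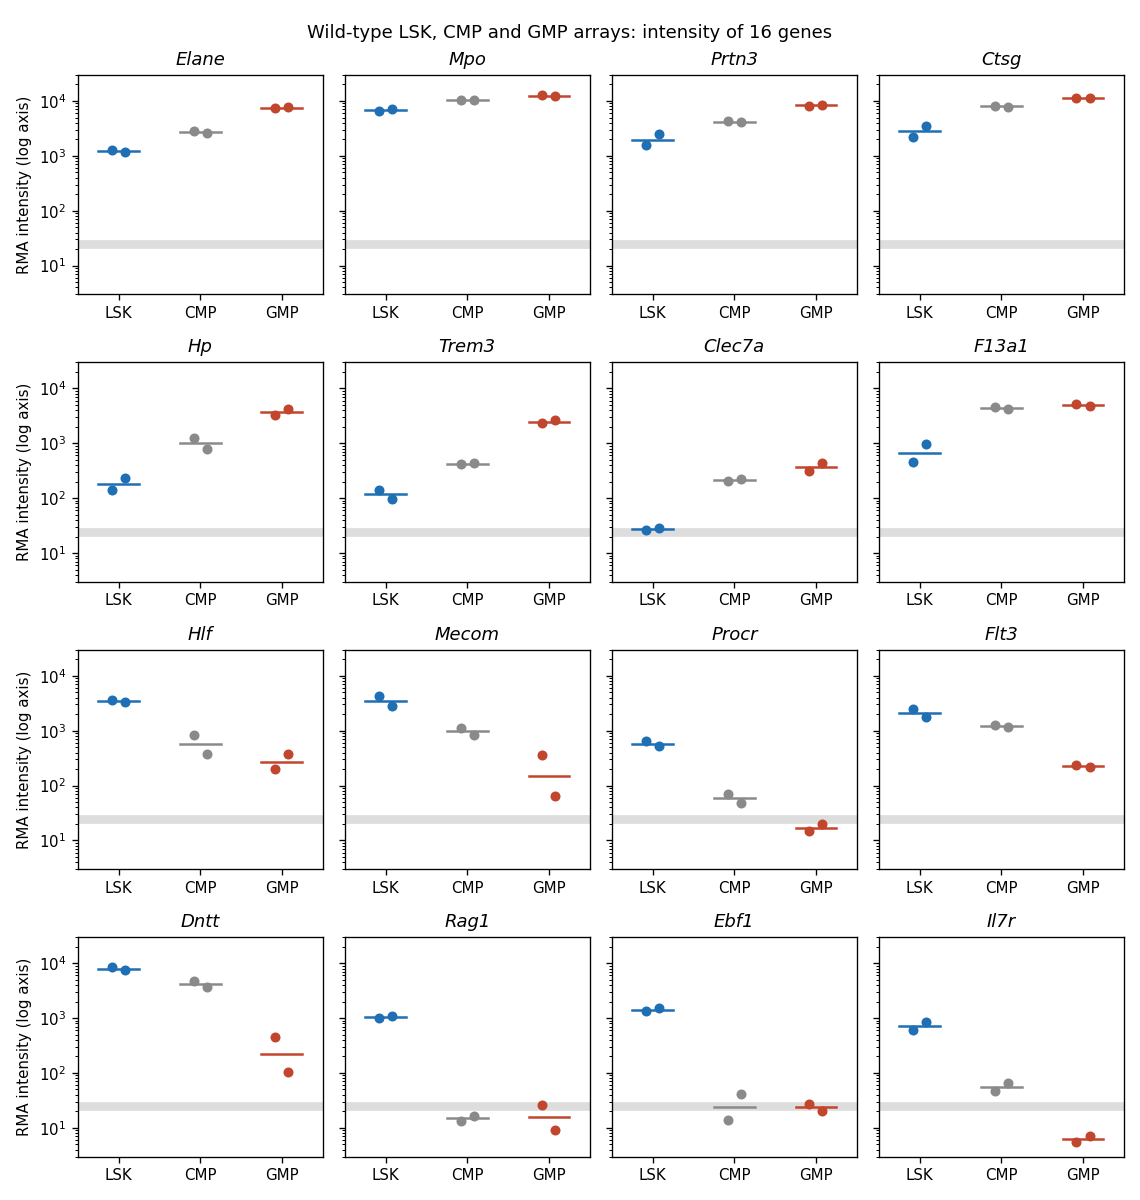
RMA intensity on a log axis in wild-type LSK, CMP and GMP. Shown are genes of the primary granule list (Elane, Mpo, Prtn3, Ctsg, Hp) and of monocytes and granulocytes (Trem3, Clec7a, F13a1). Also shown are genes of stem cells (Hlf, Mecom, Procr), the cytokine receptors Flt3 and Il7r, and lymphoid genes (Dntt, Rag1, Ebf1). Points are the 2 arrays of each group, lines their mean log2 level, and the grey band the range of the arrays' floors (20.8 to 27.8). Il7r fell from 614 and 831 in LSK to 5.61 and 7.04 in GMP, below the band, while Elane rose from 1279 and 1158 to 7528 and 7634.

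Genes on the primary granule list rose as a group: 15 of 22 measured were called higher and 0 lower. Their median log2 difference was 1.46 (0.07 over all genes). The list is wider than granule proteins: it also holds the membrane proteins Ms4a3 and Igsf6, and Alas1 and Gstm1, among others. Elane stood at 1279 and 1158 in LSK, 2821 and 2660 in CMP and 7528 and 7634 in GMP. The 3 populations did not overlap, and GMP exceeded LSK 6.23-fold (log2 difference 2.64, SE 0.16, adjusted p = 6.67e-05, limma). Mpo was already bright in LSK, at 6472 and 7049, and stood at 12630 and 12140 in GMP, a rise of 1.83-fold (adjusted p = 0.00173, limma). Prtn3, which encodes proteinase 3, rose 4.23-fold, from 1591 and 2479 to 8250 and 8555. Ctsg, cathepsin G, rose 4.01-fold, from 2226 and 3491 to 11230 and 11110. Ms4a3 went from 2630 and 2214 to 8339 and 9311, a rise of 3.65-fold (adjusted p = 0.000139, limma). Hp, haptoglobin, which binds free haemoglobin, stood at 140 and 232 in LSK and 3340 and 4166 in GMP, or 20.7-fold higher. Gstm1, a glutathione transferase, rose 3.48-fold. Alas1, the first enzyme of haem synthesis, rose 10.5-fold, from 88.2 and 177 to 1407 and 1227. Members that did not pass include the lysozymes Lyz1 and Lyz2, at log2 differences of -0.33 and -0.32, and Srgn, the granule proteoglycan serglycin, at 0.18. With the 4 arrays alone 4 of the 22 were called, and with any 1 array left out 13 to 16.

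Genes of the later granules had fewer calls than the primary granule list. Of 19 measured secondary and tertiary granule genes, 3 were called higher (Ltb4r1, Pglyrp1 and Anxa1) and 1 lower (Padi4), with a median of -0.44. Over all genes 3.22% were called higher and 3.87% lower. Pglyrp1, a peptidoglycan-binding granule protein, stood at 261 and 324 in LSK and 1106 and 1122 in GMP, a rise of 3.83-fold. Some of the transcripts that mark maturing neutrophils were bright in both populations. S100a8 stood at 6822 and 5950 in LSK and 5483 and 5780 in GMP, and S100a9 at 8907 and 7778 against 5348 and 4693 (adjusted p = 0.705 and 0.0505, limma). Others were dimmer, with Ltf at 442 and 170 in LSK and 132 and 276 in GMP, and Mmp8 at 149 and 58.3 against 38.0 and 29.9. Summed over 6 mature neutrophil markers, LSK stood at 20840 and 17670 and GMP at 13430 and 13030, mostly from S100a8 and S100a9. Apart from Ltf and Mmp8, these markers were not low in the LSK gate. Their part in the rises above was not tested. Anxa1 and Padi4 lost their calls when single WT arrays were left out (Anxa1 with each of the 4, Padi4 with LSK replicate 1 or either GMP array).

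The machinery of protein export rose beside the granule genes. Of 38 measured genes of folding and secretion in the endoplasmic reticulum (ER), 22 were called higher and 0 lower, with a median of 0.84. A difference above 0 was found for 37 of 38, against 10746 of 18194 over all genes. Hyou1, an ER chaperone, stood at 739 and 687 in LSK and 1543 and 1870 in GMP, a rise of 2.38-fold (adjusted p = 0.00104, limma). Spcs3, a subunit of the signal peptidase, rose 2.28-fold, from 1738 and 2060 to 4296 and 4324. Pdia4, a protein disulfide isomerase, rose 2.40-fold. Hspa5, the main ER chaperone BiP, rose 1.81-fold, from 2519 and 2704 to 4953 and 4489. Sdf2l1, which works with it, rose 4.51-fold, from 480 and 1004 to 2957 and 3313. The number called was 0 of 38 with the 4 arrays alone, 8 without LSK replicate 1, 10 without GMP replicate 1 and 8 without GMP replicate 2.

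Genes of monocytes, macrophages and dendritic cells were called higher in 12 of 27 and lower in 1, Flt3, with a median of 0.77. Clec7a, the beta-glucan receptor Dectin-1, stood just above the floor in LSK, at 26.3 and 29.2, at 202 and 224 in CMP, and at 311 and 433 in GMP, a rise of 13.2-fold (adjusted p = 7.87e-05, limma). Ly86, which partners a Toll-like receptor relative, rose 6.98-fold, from 307 and 416 to 2499 and 2488. Its CMP arrays, at 2421 and 2473, were already at the GMP level. F13a1, the factor XIII subunit made by monocytes, stood at 459 and 988 in LSK, 4526 and 4183 in CMP, and 5238 and 4800 in GMP, 7.44-fold higher. Ccr2, the receptor for the monocyte chemokine Ccl2, rose 7.09-fold, from 498 and 213 to 2109 and 2536. Itgam, the CD11b subunit, lay at or below the floor on all 4 arrays, between 9.15 and 13.2. Csf1r, the M-CSF receptor, stood at 682 and 269 in LSK and 1449 and 1588 in GMP and did not pass (adjusted p = 0.202, limma). With the 4 arrays alone 3 of the 27 were called higher.

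Large rises outside the monocyte list included myeloid surface and vesicle proteins. Trem3, a receptor of the TREM family, rose 21.1-fold, from 143 and 97.3 in LSK to 2371 and 2610 in GMP (adjusted p = 4.95e-05, limma), with CMP at 418 and 429. Rab7b, a small GTPase of late endosomes, rose 20.8-fold, from 88.8 and 138 to 2392 and 2232. Tifab, an inhibitor of the TRAF6 adaptor TIFA, rose 18.0-fold, from 54.5 and 139 to 1194 and 2072, and Igsf6, an immunoglobulin superfamily receptor, rose 18.0-fold, from 152 and 77.9 to 2477 and 1559. Dmkn rose 20.0-fold and Ccno, a cyclin-like protein, 17.3-fold. Among genes at or below the floor on both LSK arrays, Cdh1, E-cadherin, was at least 12.1-fold higher, at 10.1 and 7.18 in LSK and 212 and 327 in GMP, and Enah, an actin regulator, at least 9.36-fold higher. Lin28a, an RNA-binding protein that blocks let-7 maturation, stood at 8.40 and 12.6 in LSK, below the floor in CMP, and 503 and 378 in GMP, at least 20.1-fold higher (adjusted p = 0.0124, limma). It did not pass without LSK replicate 1 or either GMP array (adjusted p between 0.0601 and 0.0707).

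Of 23 measured transcription factors of the myeloid line, 5 were called higher and 1 lower (Irf4), with a median of 0.44. Irf8, which directs monocyte fate, rose 2.74-fold, from 740 and 791 in LSK to 2244 and 1958 in GMP (adjusted p = 0.0023, limma). The CMP arrays, at 2572 and 2672, lay above both. Spi1, which encodes PU.1, rose 2.11-fold, from 157 and 175 to 342 and 358. Cebpa, which is required to form GMP, stood at 4448 and 4398 in LSK and 6962 and 6989 in GMP, a rise of 1.58-fold, reached by the CMP arrays at 6812 and 6867. Cebpd rose 5.68-fold, from 56.9 and 107 to 424 and 465. Gfi1, the repressor needed for neutrophils, stood at 765 and 557 in LSK, 378 and 343 in CMP and 1432 and 971 in GMP, and did not pass (adjusted p = 0.335, limma). Without GMP replicate 2 only 1 of the 23 was called higher, and 3 without LSK replicate 1 or GMP replicate 1. The adjusted p was 0.0539 for Spi1 without GMP replicate 2, 0.0569 and 0.0585 for Cebpd without LSK replicate 1 and without GMP replicate 2, and 0.0673 to 0.116 for Cebpa without any 1 of the 4 arrays.

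Cytokine receptors changed in both directions, with 3 of 30 called higher and 4 lower (2 lower without GMP replicate 2). The shares over all genes were 3.22% and 3.87%. Ifngr1, the interferon gamma receptor chain, rose 3.02-fold, from 573 and 547 to 1729 and 1655. Csf2rb, the shared beta chain of the GM-CSF, IL-3 and IL-5 receptors, rose 2.44-fold, from 527 and 782 to 1492 and 1640. Il1r1, the interleukin-1 receptor, fell 5.95-fold, from 2946 and 3015 to 464 and 540. Csf3r, the G-CSF receptor, stood at 207 and 234 against 212 and 270 and did not pass. Among 19 pattern recognition genes 3 were higher, Clec7a, Cd14 and Clec4a2, and 3 lower, Tlr7, Ddx58 and Ifih1, which sense RNA. Tlr7 and Ddx58 lost their calls without LSK replicate 1 or either GMP array. Ifih1 fell 3.21-fold, from 538 and 627 to 171 and 192. Of 7 subunits and partners of the NADPH oxidase, Ncf4 (2.19-fold) and Ncf1 (2.51-fold) were called higher. Ncf1 lost its call without LSK replicate 2 or either GMP array. Of 28 adhesion and homing genes 4 were higher and 1, Esam, lower, the latter close to the share of all genes called lower. Vcam1 rose 5.40-fold, from 127 and 203 in LSK to 969 and 772 in GMP, after 52.4 and 44.1 in CMP.

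Mast cell and basophil genes were called higher in 7 of 20 and lower in 1, Gata2, with a median of 0.24. Mcpt8, a basophil protease, stood at 154 and 209 in LSK, 588 and 465 in CMP and 900 and 943 in GMP, a rise of 5.14-fold (adjusted p = 0.000722, limma). Ms4a2, the beta chain of the high-affinity IgE receptor, stood at 17.2 and 95.2 in LSK and 655 and 443 in GMP. Cpa3, mast cell carboxypeptidase, stood at 191 and 301 in LSK, 962 and 1070 in CMP and 748 and 1271 in GMP. Summed over 4 defining markers of these cells, LSK stood at 368 and 630 and GMP at 2389 and 2760, and the mature mast cell proteases Mcpt1, Mcpt4 and Tpsab1 stayed below the floor on all 4 arrays. Cma1, the mast cell chymase, went the other way, from 20.1 and 21.3 in LSK to 64.3 and 50.9 in GMP, 2.77-fold higher (adjusted p = 0.00161, limma). Without GMP replicate 2, Cpa3 did not pass (adjusted p = 0.0509) and 4 of the 20 were called higher, and Ms4a2 did not pass without GMP replicate 1. Gata2 lost its call without any 1 of the 4 arrays.

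**Figure D2:**
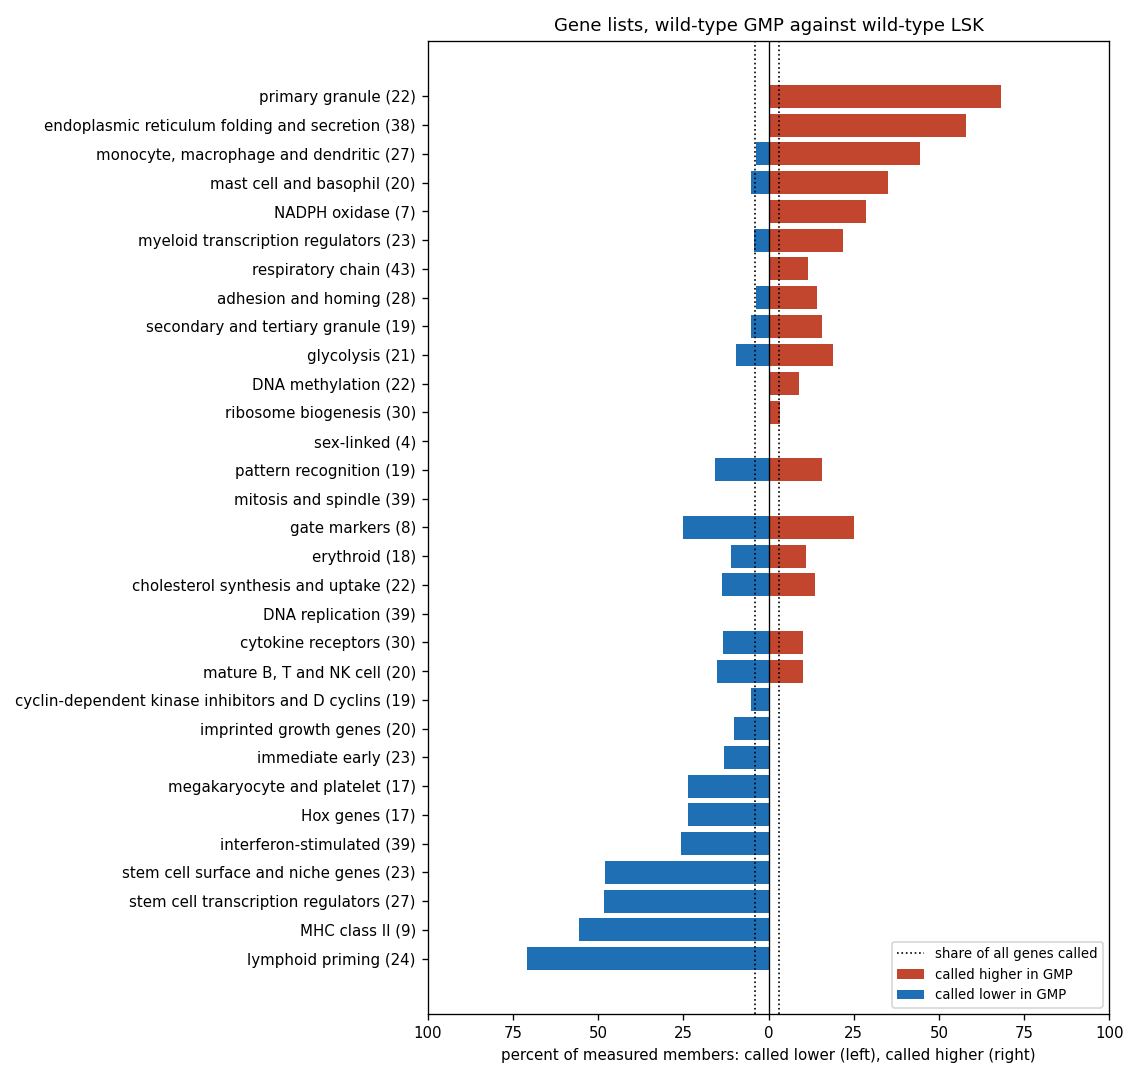
Percent of the measured members of each gene list (number in brackets) that were called higher in wild-type GMP (red, right) or lower (blue, left) at an adjusted p below 0.05. Dotted lines give the shares over all 18194 genes, 3.22% and 3.87%, and the lists of primary granules (15 of 22 higher) and lymphoid priming (17 of 24 lower) stand at the ends.

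On the falling side, regulators of the stem cell state were called lower in 13 of 27 and higher in 0, with a median of -0.97. Hlf, a bZIP factor of stem cells, stood at 3587 and 3333 in LSK, 852 and 379 in CMP and 204 and 368 in GMP, 12.6-fold lower (adjusted p = 0.001, limma). Mecom, which encodes Evi1 and is needed for stem cell maintenance, stood at 4255 and 2844 in LSK and 353 and 63.8 in GMP, 23.2-fold lower. Mycn fell 6.98-fold, from 2879 and 2636 to 524 and 297. Msi2, an RNA-binding protein of stem cells, fell 2.47-fold, from 7106 and 6113 to 2951 and 2410, though not with its most variable probe set. Meis1, a partner of Hox proteins, stood at 516 and 456 in LSK and 105 and 10.4 in GMP. The 2 GMP arrays differed widely there and for Mecom, with replicate 2 the lower. Meis1 did not pass without LSK replicate 1 (adjusted p = 0.0908) or replicate 2 (0.0527). Runx1, Fli1 and Etv6, factors used throughout blood formation, did not pass, with log2 differences of -0.17, 0.10 and -0.29. The count of falls in this list was 5 without LSK replicate 1, 8 without LSK replicate 2, 6 without either GMP array and 1 with the 4 arrays alone.

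Surface and niche genes of stem cells were called lower in 11 of 23 and higher in 0, with a median of -1.50, and 10 to 12 were called with any 1 array left out. Procr, the protein C receptor that marks long-term stem cells, stood at 644 and 519 in LSK, 70.8 and 48.1 in CMP and below the floor in GMP, at 14.8 and 19.8, at least 24.8-fold lower. Pdzk1ip1 fell 7.23-fold, from 532 and 462 to 61.2 and 76.8. Esam, an endothelial and stem cell adhesion protein, fell 15.4-fold, from 746 and 351 to 21.6 and 51.2, with 1 GMP array below the floor. Robo4, another protein shared with endothelium, stood at 287 and 89.5 in LSK and below the floor in GMP, at least 6.87-fold lower. Fgd5, used to mark stem cells in reporter mice, was at least 9.31-fold lower. Angpt1, a ligand of the Tek receptor, fell 4.69-fold, from 3494 and 2466 to 733 and 535. Cxcr4, the receptor that keeps cells in the marrow, was bright in both, at 8270 and 7514 against 8005 and 11880, and did not pass (adjusted p = 0.376, limma). Slamf1 (CD150) stood at 113 and 183 in LSK and 87.9 and 47.0 in GMP and did not pass either. With the 4 arrays alone 3 of the 23 were called.

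Some of the falls outside the stem cell lists concerned cytokine signalling and the cytoskeleton. Socs2, an inhibitor of cytokine signals, was at least 40.5-fold lower, from 930 and 961 in LSK to 9.01 and 18.2 in GMP (adjusted p = 8.49e-05, limma). That bound holds for the probe set used, and another above the floor had a log2 difference of -2.60 (adjusted p = 0.00495). Myl10, a myosin light chain, fell 75.0-fold, from 1651 and 2078 to 22.9 and 26.6. Gimap8, a GTPase of lymphocytes, fell 29.4-fold, from 1638 and 1122 to 39.5 and 53.9, and passed with the 4 arrays alone too. The Fscn1 probe set that stood for this actin-bundling protein was at least 87.5-fold lower, from 2785 and 1493 to 5.28 and 4.21. Its 3 other probe sets did not pass, with log2 differences of -1.38, -0.20 and -0.04.

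Lymphoid genes fell together. Of 24 measured genes of lymphoid priming, 17 were called lower and 0 higher, with a median of -2.41, and 12 to 18 were called with any 1 array left out. Flt3, the receptor of lymphoid-primed multipotent cells, stood at 2500 and 1745 in LSK, 1264 and 1160 in CMP and 235 and 222 in GMP, 9.15-fold lower (adjusted p = 0.000297, limma). Il7r, the interleukin-7 receptor, stood at 614 and 831 in LSK, 47.3 and 66.7 in CMP and 5.61 and 7.04 in GMP, at least 30.6-fold lower. Dntt, terminal transferase, which adds bases at antigen receptor joints, stood at 8398 and 7406 in LSK, still 4726 and 3693 in CMP, and 460 and 102 in GMP, 36.3-fold lower. Rag1, the recombinase, stood at 989 and 1084 in LSK, already at 13.4 and 16.8 in CMP, and at 26.5 and 9.18 in GMP. Ebf1, a B lineage factor, likewise went from 1351 and 1506 in LSK to 13.9 and 41.5 in CMP, and stood at 27.7 and 20.6 in GMP. For both genes 1 GMP array was below the floor. Lef1 fell 30.2-fold, from 2123 and 2068 to 127 and 38.0, Lax1, an adaptor of lymphocytes, at least 47.5-fold, and Blnk, the B cell linker, at least 8.61-fold. Igll1, part of the surrogate light chain, fell 23.0-fold. Pax5, which commits cells to the B lineage, was below the floor on all 4 arrays, at 14.3 to 19.2. Ikzf1 and Tcf3, needed by lymphoid and other lineages, did not pass (log2 differences -0.29 and -0.31). With the 4 arrays alone 6 of the 24 were called.

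Beside these, several transcripts of antibody-producing cells were bright in LSK. These genes were chosen after their values were seen, apart from those that the naming rule took. Igk, the kappa light chain, stood at 9654 and 10240 in LSK, 33.2 and 43.7 in CMP and 64.8 and 950 in GMP. Jchain, which joins antibody units, stood at 6461 and 6628 in LSK, 16.2 and 13.7 in CMP and 32.2 and 561 in GMP. For both genes GMP replicate 2 lay far above replicate 1. Ighm, the heavy chain of IgM, fell 9.11-fold, from 3728 and 4437 to 418 and 477, though 3 of its other probe sets above the floor did not pass. The variable segments Igkv15-103 and Igkv14-111 were at least 128-fold and at least 44.1-fold lower. Mzb1, an ER protein of antibody-secreting cells, stood at 1208 and 1380 in LSK and 17.1 and 23.1 in GMP, at least 55.4-fold lower (adjusted p = 8.47e-06, limma), and Pou2af1, a B cell coactivator, fell 49.3-fold. Sdc1, syndecan-1, fell 12.8-fold, from 2425 and 2520 to 167 and 224. Prdm1 and Tnfrsf17, which mark mature plasma cells, were below the floor on all 4 arrays, as was Ms4a1 (CD20). Igha, the heavy chain of IgA, lay between 24.0 and 34.4 on the 4 arrays and did not pass. Tnfrsf13b, a receptor of B and plasma cells, stood at 1827 and 1198 in LSK and 1507 and 1341 in GMP and did not pass (adjusted p = 0.912, limma). Xbp1, a factor of secretory cells that is also on the ER list, was higher in GMP, at 502 and 465 against 793 and 999 (adjusted p = 0.0221, limma). It lost its call without either LSK array or GMP replicate 2. Summed over 4 B cell markers, LSK stood at 4890 and 6017 and GMP at 1204 and 1356. The share of the lymphoid fall that goes with these transcripts was not tested. Jchain did not pass without LSK replicate 1 (adjusted p = 0.0667), Igk did not without either LSK array or GMP replicate 1 (0.0672 to 0.0941), and Irf4 did not without LSK replicate 1 or GMP replicate 1 (0.064 and 0.0592).

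**Figure D3:**
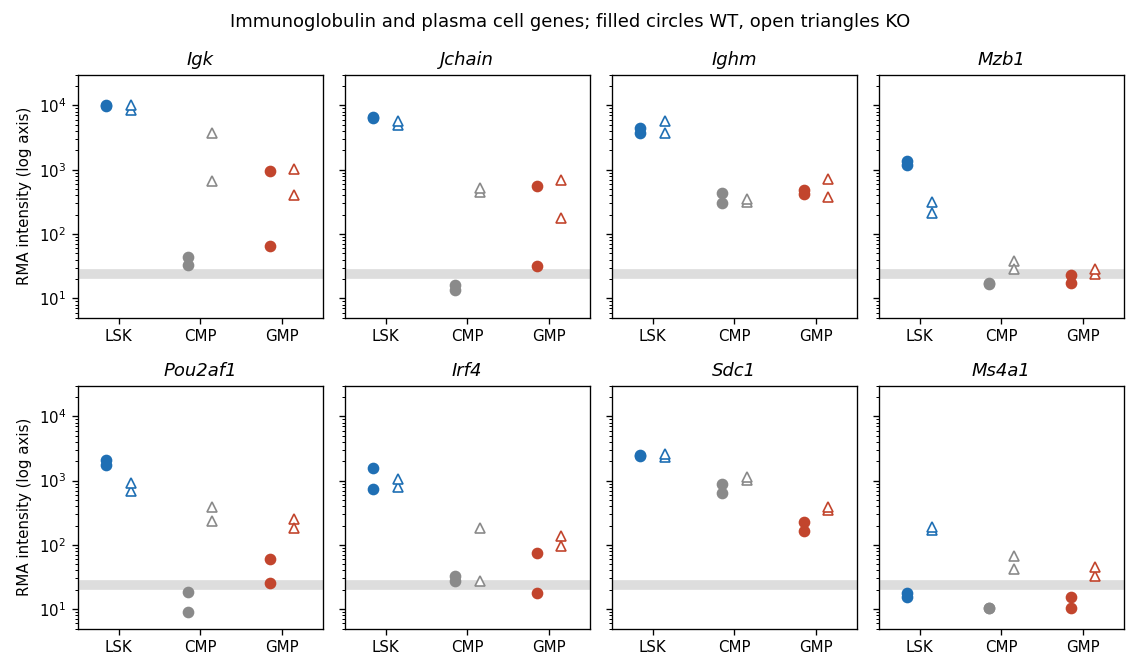
RMA intensity on a log axis of immunoglobulin and B or plasma cell genes in LSK, CMP and GMP, wild-type as filled circles and KO as open triangles, 1 point per array, with the range of the floors in grey. Igk stood at 9654 and 10240 in wild-type LSK and at 8500 and 10130 in KO LSK, while the wild-type CMP arrays stood at 33.2 and 43.7 and the KO CMP arrays at 3749 and 663.

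Markers of other lineages were checked the same way. Of 20 genes of mature B, T and NK cells, 3 were called lower (Cd79a, Ighm and Klrd1) and 2 higher (Nkg7 and Gzmb), and 7 were below the floor on all 4 arrays. Cd79a, a B cell receptor subunit, fell 5.45-fold, from 190 and 251 to 44.2 and 36.4. Summed over 5 T cell markers, levels were 104 and 169 in LSK and 95.4 and 128 in GMP. The NK marker Ncr1 was below the floor. Klrd1, the other NK marker measured, stood at 60.5 and 153 in LSK and below the floor in GMP, at 13.1 and 11.2. Nkg7, also listed with the granule genes, and Gzmb did not pass without LSK replicate 1 or either GMP array, nor Gzmb without LSK replicate 2. Of 18 erythroid genes, Tfrc and Tspo2 were higher and Car2 and Gfi1b lower. Car2, carbonic anhydrase, fell 2.18-fold, from 8852 and 8775 to 4250 and 3851, while Hba-a1 and Alas2, which mark haemoglobin-making cells, were below the floor. The erythroid marker Klf1 stood at 93.9 and 258 in LSK and 175 and 194 in GMP. Slc4a1 stood at 118 and 79.0 against 131 and 24.0, and neither passed. Of 17 megakaryocyte and platelet genes 4 were lower and 0 higher, and 2 were lower without GMP replicate 2. Selp, P-selectin, fell 3.32-fold, from 410 and 352 to 153 and 86.0. Tfrc, Tspo2 and Gfi1b each lost their call without LSK replicate 1 and at least 1 of the other WT arrays.

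Some antigen presentation and interferon response genes were lower in GMP. Of 9 measured MHC class II genes 5 were called lower and 0 higher, with a median of -2.16. H2-Ob, a chain of the DO molecule, stood at 2011 and 2199 in LSK and 466 and 320 in GMP, 5.44-fold lower (adjusted p = 0.00144, limma). Cd74, the invariant chain, stood at 504 and 1571 in LSK and 59.5 and 57.4 in GMP, 15.2-fold lower. Ciita, the class II transactivator, was below the floor on all 4 arrays, at 19.4 to 21.1. Of 39 interferon-stimulated genes 10 were lower, 0 higher and 29 did not pass, with a median of -0.59. Ifitm1 fell 3.54-fold, from 4156 and 4264 to 1022 and 1386, Ifitm3 fell 2.29-fold, and Gbp2, a guanylate-binding protein, fell 4.33-fold, from 400 and 313 to 82.8 and 80.6. Iigp1, an immunity-related GTPase, fell from 841 and 474 to 9.03 and 28.0. With 1 GMP array below the floor, the fall was 25.3-fold when that array was raised to the floor. Mx1 and Mx2 were below the floor on all 4 arrays, between 5.72 and 21.8. The mice had received pIC, which induces interferon, and the GMP sort time is not given. Between LSK and GMP, time after pIC and cell type therefore cannot be told apart. LSK and CMP were both sorted 4 weeks after deletion. The median of the interferon list was -0.49 from LSK to CMP and -0.13 from CMP to GMP. The part of time after pIC was not tested. The interferon count was 4 without GMP replicate 1, and it was 1, and that of class II 0, with the 4 arrays alone.

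Cell division genes showed no called change in the WT span. Of 39 DNA replication genes and of 39 genes of mitosis and the spindle, 0 passed in either direction, with medians of 0.27 and 0.01. A difference above 0 was found for 33 and 21 of them, against 10746 of 18194 over all genes. At an unadjusted p below 0.05 in limma there were 8 and 5. Over all 18194 genes 3772 had such a p and 1290 passed. The smallest p in the replication list was that of Cdc45, a helicase factor, at 462 and 624 in LSK and 903 and 868 in GMP (log2 difference 0.72, adjusted p = 0.0688, limma). In the mitosis list it was that of Nusap1, at 2811 and 2824 against 2247 and 1977 (adjusted p = 0.121). Of 19 cyclin-dependent kinase inhibitors and cyclins 1 passed, Ccng2, which fell 1.96-fold, though not with its most variable probe set or the mean of its probe sets. Of 30 ribosome biogenesis genes 1 passed, Nop2, close to the 3.22% of all genes called higher, and 27 had a difference above 0. Over all 18194 genes 10746 had a difference above 0. Nop2 did not pass without LSK replicate 1, either CMP array or either GMP array, and 4 of the 30 passed without LSK replicate 2. Of 43 respiratory chain genes 5 were higher and 0 lower, and all 43 had a difference above 0, with a median of 0.39. Ndufb3, a complex I subunit, rose 2.11-fold, from 1038 and 1279 to 2577 and 2293. The respiratory count was 2 without LSK replicate 1, 9 without LSK replicate 2, 2 without GMP replicate 1 and 1 without GMP replicate 2. It was 8 without either KO LSK array, 2 without either KO replated array and 0 with the 4 arrays alone.

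Metabolic genes changed in both directions. Of 21 glycolysis genes 4 were higher (2 without GMP replicate 1) and 2 lower. Hk3, the hexokinase of myeloid cells, rose 3.93-fold, from 143 and 181 to 637 and 626. Pfkp, a phosphofructokinase, rose 3.67-fold, from 149 and 290 to 806 and 718. The other probe sets of Pfkp had log2 differences of 1.05 and 0.46 that did not pass. Aldoc, an aldolase, fell 7.04-fold, from 143 and 166 to 14.4 and 33.3, or 5.65-fold with the GMP array below the floor raised to it. For Slc2a3, a glucose transporter, the probe set used fell 2.46-fold, and another had a log2 difference of -1.23 (adjusted p = 0.00159, limma). The remaining probe sets of Slc2a3, at 0.59 and -2.04, did not pass. Of 22 cholesterol genes 3 were higher and 3 lower. Fdps, an enzyme of isoprenoid synthesis, rose 3.64-fold, from 127 and 250 to 634 and 664, and Srebf2, the sterol-sensing regulator, fell 2.43-fold, from 4068 and 3582 to 1587 and 1554. Of 23 immediate early genes, which respond to handling as well as to signals, 3 were lower (Klf6, Ier3 and Dusp2), and each lost its call without LSK replicate 1 or GMP replicate 2. Of 17 Hox genes 4 were lower, with 0 without LSK replicate 1 or GMP replicate 2, 1 without GMP replicate 1, and 2 without LSK replicate 2, either KO GMP array or either KO replated array. Hoxa10 fell 11.1-fold, from 2842 and 1838 to 256 and 164, and Hoxa9 1.96-fold, from 1583 and 1157 to 686 and 694. Neither passed without LSK replicate 1 or either GMP array (adjusted p 0.0563 to 0.134). Of 20 imprinted growth genes Rian and Sgce were lower, and Rian, at 164 and 50.5 in LSK, ended below the floor. Sgce did not pass without LSK replicate 1 or either GMP array. Of 22 genes of DNA methylation, Dnmt3l and Idh1 were higher, Idh1 not without LSK replicate 1 or either GMP array. Tet2 itself stood at 829 and 454 in LSK, 1225 and 1287 in CMP and 2045 and 1204 in GMP and did not pass (log2 difference 1.36, SE 0.39, adjusted p = 0.0758, limma). Of 4 sex-linked genes 0 passed within the WT span (0 at an unadjusted p below 0.05 in limma), with Xist near the floor and Eif2s3y, on the Y chromosome, at 772 and 1035 against 1115 and 1203.

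For most called genes the CMP mean lay between the endpoints. These genes were chosen for a gap between the LSK and GMP arrays, which favours a CMP mean in between. The share over all genes was not computed, so the counts do not test whether CMP is intermediate. Of the 586 rises, the CMP mean lay between the LSK and GMP means for 518, and of the 704 falls for 610. At the median gene CMP stood at 48.3% of the way for rises and 57.5% for falls. The steps share the CMP arrays, so their values are set side by side. Fcgr3 differed by 0.47 from LSK to CMP and by 2.83 from CMP to GMP on the log2 scale, and Dntt by -0.92 and -4.27. Ebf1 differed by -5.89 and then -0.01. Lymphoid priming genes had a median of -1.90 over the first step and -0.52 over the second, and the primary granule list 0.50 and 0.63. Megakaryocyte genes had medians of 0.36 and -1.10, with opposite signs.

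The span in the KO littermates shares no array with the WT span, but it differs from it in sex as well as genotype. Both spans use the same estimate of the spread for each gene, so their calls are not independent. Xist, the transcript that silences an X chromosome in females, stood at 6547 and 6634 in KO LSK and at 4980 and 5042 in KO GMP, against 29.0 and 23.9 in WT LSK and 18.7 and 24.3 in WT GMP. Eif2s3y, on the Y chromosome, stood at 8.22 and 6.47 in KO LSK and 10.7 and 7.86 in KO GMP, all below the floor, against 772 to 1203 on the WT arrays. The replated KO arrays, which enter the fit only through the shared spread, had the WT pattern, with Eif2s3y at 2056 and 2083. In the KO span, 623 genes were higher in GMP (3.42% of 18194) and 684 lower (3.76%). Of the genes higher in WT, 322 were also called higher in KO, which is 54.9% of the WT list and 51.7% of the KO list. Of the genes lower in WT, 435 were also called lower in KO, 61.8% and 63.6% of the lists, and 0 genes were called in opposite directions. Counted over all WT-called genes, including those called in both, 560 of 586 rises and 666 of 704 falls had a KO difference of the same sign, while 58.2% of all genes had a KO difference above 0. The median KO difference was 1.0 for the WT rises, whose own median was 1.33, and -1.36 for the WT falls, whose own was -1.92. The genes were chosen on their WT values, which favours the larger WT figures. Tet2 read 855 and 1859 in the LSK and 2376 and 2228 in the GMP arrays labelled KO. Whether this probe set lies in the deleted part was not analysed here, so it does not check the labels. Genes of the primary granule list were called higher in 15 of 22 in KO too, and ER genes in 23 of 38. Lymphoid priming genes were called lower in 13 of 24, with a median of -1.22 against -2.41.

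The test of the difference between the spans passed for 1 gene (0.0055% of 18194), Ifi44l, an interferon-induced gene, while 1085 genes had an unadjusted p below 0.05. In WT it was below the floor on every array, at 4.85 and 4.96 in LSK and 6.66 and 7.40 in GMP. In KO it stood at 1101 and 750 in LSK and 60.5 and 55.3 in GMP. The KO span minus the WT span was -4.49 on the log2 scale (SE 0.36, adjusted p = 0.00844, limma). The call was lost with the 8 arrays of both spans alone (adjusted p = 0.0948, limma), and when either GMP array of the KO mice was left out (0.0794 for replicate 1, 0.0923 for replicate 2). The next genes by p were Ifi202b, Mzb1, Iglv1 and Ccr1 (adjusted p of the difference 0.0807, limma) and Igkv14-111 (0.103). After them, Rtn4rl1 (0.129) fell in WT, from 369 and 151 to 45.1 and 32.5. It stood at 25.1 and 42.3 in KO LSK and 72.7 and 108 in KO GMP. Another probe set of Rtn4rl1 had a WT log2 difference of 0.68 that did not pass.

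**Figure D4:**
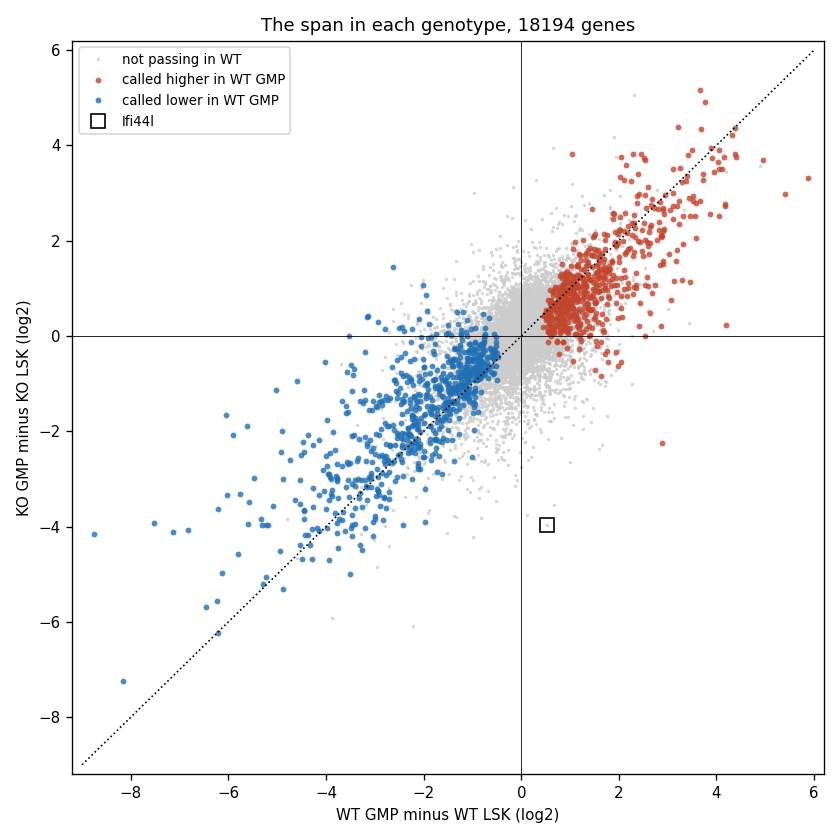
Log2 difference of GMP minus LSK in wild-type (x axis) and KO (y axis), 1 point per gene, red where called higher and blue where called lower in wild-type, with the dotted line at equal differences. Most coloured points lie on the same side of 0 on both axes (560 of 586 and 666 of 704), and Ifi44l, boxed, lies at 0.52 in wild-type and at -3.97 in KO.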

How the data were processed

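RNA of sorted cells was amplified and labelled with biotin, per the labels' protocols, and the authors deposited RMA probe-set intensities on a linear scale, per the submitters' processing notes and the values (array medians 31.2 to 33.0). The sources used here do not state the RMA version. This method compresses differences near background. Log2 was taken, the probe set of highest mean stood for each gene, and 9211 probe sets that the platform annotation does not list and 932 that name several genes were left out at gene level. Symbols were updated by gene identifier. The chosen probe set can hybridise with related transcripts for 1570 genes.

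A mean per group was fitted over all 14 arrays with limma 3.58.1 in R 4.3.3 (package data.table, version 1.17.8), with 7 residual and 2.19 prior degrees of freedom, two-sided tests and Benjamini-Hochberg adjustment over 18194 genes, and an adjusted p below 0.05 passed. The fit was tested on simulated data. Folds were computed from log2 differences, and SE is the moderated standard error. Where 1 group lay at or below the floor on both arrays, the bound "at least" divides the brighter mean by the mean floor. The floor is the highest of 27 bacterial control probe sets on each array.

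Of the genes in the 31 lists, counts and medians are given beside those of all genes, without a test. Genes were named by rule: Tet2, the gate markers, set stem and myeloid regulators, the 8 largest rises and falls above the floor, the 6 brightest that rose from or fell to it, up to 4 members of each list with the smallest p (2 where none passed), and the 8 smallest p of the difference between genotypes. Prtn3, Ctsg, Alas1, Srgn, Lyz1, Lyz2, S100a8, S100a9, Hspa5, Sdf2l1, F13a1, Itgam, Ms4a2, Robo4, Fgd5, Cxcr4, Rag1, Blnk, Pax5 and the other list members printed with values were chosen after their values were seen. The comparison, the lists and the rule were chosen with earlier results of these data known. The alternatives were other sample sets, normalizations, probe-set choices, variance settings, a replicate block and each array left out. Promoter windows came from RefSeq. No slide or scan batch was analysed here. Precision is limited by the small number of arrays.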

Additional observations from a re-analysis of the deposited data

Results flagged for a closer look

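Ifi44l stood out because the change from LSK to GMP differed between the genotypes by the test of the difference itself. The KO span minus the WT span was -4.49 on the log2 scale (SE 0.36, adjusted p = 0.00844, limma). The WT arrays were all below the floor, so the value rests on the fall within the 4 KO arrays, from 1101 and 750 in LSK to 60.5 and 55.3 in GMP. Without KO GMP replicate 1 the adjusted p was 0.0794, and without replicate 2 it was 0.0923, so either ended the call. The KO arrays of this comparison carried Xist and the WT arrays Y-linked transcripts, so genotype and sex cannot be told apart in this value. On the replated KO arrays, which had the WT pattern of sex-linked transcripts but are not of sorted cells, Ifi44l stood at 5.19 and 5.30. Ifi44l and Tet2 both lie on chromosome 3. Whether the strain background near Tet2 differed between the genotypes was not tested. No group was large enough for a test of outlying samples.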

How the results depend on the processing

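The main counts were 586 genes higher and 704 lower in WT, 1307 called in KO, 1 in the difference between the spans and 1939 probe sets. With the arrays of each comparison alone they were 57, 132, 200, 0 and 0. With the 6 WT arrays alone the WT counts were 240 and 395. Against a minimum change of 2-fold (limma's treat) they were 60 and 155 in WT and 143 in KO. With values raised to the floor the difference between the spans had 5 genes. With 1 array left out, counts ran from 249 to 731 higher and 397 to 812 lower in WT, 494 to 1458 in KO, 0 to 72 for the difference and 905 to 2529 probe sets. The other settings, among them quantile normalization, median centring, a filter on dim genes and other probe-set choices, kept the WT counts within 1.5 times. Among named genes 1 changed sign, Atp5g1 with the most variable probe set (log2 difference -0.066, adjusted p 0.968). Of the 126 called named genes 74 held under all alternatives but the 4 arrays alone.

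Whether the numbers of the replicates pair the samples is not known. Same-numbered arrays deviated together, at a correlation above 0.1, in 1 of 21 pairs of groups (correlations -0.10 to 0.10). That pair was WT LSK with WT GMP, the groups compared here, at 0.10. With 2 arrays per group such low correlations cannot exclude a pairing. With a replicate block 539 genes were higher and 690 lower in WT, 1178 were called in KO, 1 in the difference and 1795 probe sets. The 4 arrays give 2 residual degrees of freedom when fitted alone, so calls near the threshold rest on the spread of the other groups. At 5301 genes all 4 arrays lay at or below the floor, and no change can be read there.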
